A study of Mus musculus with 32 samples.

Results

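*Sord* encodes sorbitol dehydrogenase, the second enzyme of the polyol pathway. It is described here with related genes, the aldose reductase *Akr1b3* and its relatives *Akr1b8* and *Akr1b10*, the ketohexokinase gene *Khk*, and *Dcxr*, which encodes dicarbonyl/L-xylulose reductase. These are 6 of the 53558 genes in the deposited tables, and each was found by its symbol in all 32 libraries. *Sord* was chosen by its measured values, because it was lower in *Lkb1*-deficient tumor cells and higher after *Lkb1* was restored. Its differences between groups are therefore given as a description with no test. *Akr1b3* and *Khk* stand beside it in the pathway, and the other genes are relatives or belong to a neighboring route. All 6 are called pathway genes below for short.

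The polyol pathway is a side branch of glucose metabolism. Aldose reductase reduces glucose to sorbitol with NADPH, and sorbitol dehydrogenase oxidizes sorbitol to fructose with NAD+, after which ketohexokinase can phosphorylate the fructose to fructose 1-phosphate. Sorbitol is also an osmolyte in kidney cells, and relatives of aldose reductase reduce aldehydes and retinal. DCXR works in a neighboring route, the glucuronate-xylulose pathway, and makes xylitol from L-xylulose.

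RNA was sequenced from neoplastic cells that had been sorted from mouse lung tumors with dead, CD45+, CD31+, F4/80+ and Ter119+ cells excluded. All mice carried the red reporter *Rosa26*LSL-tdTomato. Lentiviral Cre delivered to the lung started the tumors and also switched on this reporter. *KT* mice carried neither the *Lkb1* nor the *Trp53* alleles below, received no treatment and kept functional *Lkb1* (gene symbol *Stk11*; 4 libraries). *Lkb1*XTR/XTR mice had both copies of *Lkb1* silenced by a gene trap that Cre switches on and FLPo-ERT2, a recombinase that is active only with tamoxifen, removes. Restored libraries (n = 7, all from females) came from mice with *Rosa26*FLPo-ERT2 given 4 mg doses of tamoxifen over 2 weeks. The 10 non-restored libraries pooled 6 with FLPo-ERT2 given corn oil vehicle and 4 without FLPo-ERT2 given tamoxifen. Of the non-restored libraries 7 were from females and 3 from males, and of the *KT* libraries 2 and 2, so sex was not balanced between groups. These tumors grew for 24 to 27 weeks. A second set carried *Trp53*flox/flox, deleted by the same Cre, and grew for 16 to 19 weeks. It held 4 restored libraries, all from females, and 7 non-restored libraries that came from 4 animals and were summed by animal. Of these animals 2 had FLPo-ERT2 and were given vehicle, 2 lacked it and were given tamoxifen, and 2 of the 4 were male. Because *KT* mice were untreated, *Lkb1* state and treatment cannot be told apart in comparisons with *KT*, and *Trp53* state cannot be told apart from tumor age. Each *Trp53* wild-type library has its own identifier in the labels, but the study counts fewer mice than libraries for the restored and non-restored groups. Whether any of these libraries share a mouse is therefore not settled.

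Libraries held between 1302482 and 5943951 expected counts, the *KT* libraries being the shallowest on average with 1871138. Levels are given as CPM, counts scaled to a common library total after TMM normalization, or as TPM, which also divides by transcript length and is used here when genes are compared with each other. The trapped gene matched the labels. *Stk11* was at most 1.08 CPM in each non-restored library or animal, at least 8.42 CPM in each restored library and at least 16.7 CPM in each *KT* library. Markers of alveolar type II (ATII) epithelium, summed over 8 genes, ranged from 34911 to 87702 CPM in restored, from 5662 to 55708 CPM in non-restored and from 37141 to 74140 CPM in *KT* libraries. The surfactant genes *Sftpc* and *Sftpa1* made up most of these sums, with means of 21425 and 8995 CPM in non-restored and 29473 and 20297 CPM in *KT* libraries. In the fit 4 of the 8 genes were higher and 4 lower in non-restored than in *KT* cells. *Cdh1*, at 830 against 535 CPM, and *Nkx2-1*, at 290 against 207 CPM, were among the higher ones. Sums over marker lists of other cells were far lower over all groups. They reached 339 CPM for 10 immune, 129 CPM for 6 endothelial, 1488 CPM for 6 fibroblast, 439 CPM for 6 airway, 4.52 CPM for 5 red blood cell and 35.7 CPM for 5 hepatocyte genes. None of the tested genes on these lists passed in any comparison, but the count filter removed many. In the *Trp53* wild-type fit 0 of 5 red blood cell, 1 of 5 hepatocyte and 5 of 10 immune genes were tested. On restoration all 5 immune genes rose there (median log2 1.02), while all 5 tested endothelial genes fell (-0.83). In non-restored against *KT* cells all 6 fibroblast (median log2 1.57) and all 5 tested endothelial genes (1.96) were higher. Of 4 tested airway genes 3 were lower. Equal shares of other cells in all groups are thus not shown. In cells sorted in bulk, fewer cells of a type and less RNA per cell cannot be told apart.

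*Sord* lies on chromosome 2 (GRCm38, 122234749 to 122265340, plus strand) and has 1 annotated transcript. The aldose reductases lie together on chromosome 6, *Akr1b3* at 34302434 to 34317478 on the minus strand, *Akr1b8* at 34354119 to 34368463 and *Akr1b10* at 34384218 to 34396950, both on the plus strand. *Khk* is at 30921431 to 30931248 on chromosome 5 (plus strand) and *Dcxr* at 120725399 to 120727281 on chromosome 11 (minus strand). The bases before the annotated start of *Sord*, the gene on which the results turn, and of *Dcxr*, the only gene of the set with one of the 5 searched motifs in such bases, are shown from the RefSeq promoter table (GRCm38.p6), 5′ to 3′ on the strand of the gene. Capitals mark the motif. The *Sord* stretch is chr2:122234589-122234748 and the *Dcxr* stretch is chr11:120727285-120727534.
Sord: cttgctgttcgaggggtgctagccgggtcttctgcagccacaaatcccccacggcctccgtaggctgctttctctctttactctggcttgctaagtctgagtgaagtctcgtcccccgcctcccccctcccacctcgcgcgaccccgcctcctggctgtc
Dcxr: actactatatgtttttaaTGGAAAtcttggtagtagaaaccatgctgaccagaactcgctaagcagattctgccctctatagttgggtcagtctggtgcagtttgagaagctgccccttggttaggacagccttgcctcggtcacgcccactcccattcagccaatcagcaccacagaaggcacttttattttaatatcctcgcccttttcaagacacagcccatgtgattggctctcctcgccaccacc

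Letters were searched on both strands over the whole table entry, 250 bases before to 50 after the RefSeq start. The C/EBP core TTGCNNAA was in 10.8% of all 32851 promoters, the CRE TGACGTCA in 1.79%, the antioxidant response element core TGACNNNGC in 12.4%, the NFAT core TGGAAA, which NFAT5 also reads, in 21.4%, and the E-box CACGTG in 7.15%. None of these letters was in the *Sord*, *Akr1b8* or *Akr1b10* entry. *Dcxr* held the NFAT core and *Khk* an E-box that lies past its annotated start. No entry was used for *Akr1b3*.

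The aldose reductases are related in sequence, so the values that RSEM gives for the certainty of their counts are shown with it. Over 948 coding bases *Akr1b8* and *Akr1b10* were 84.7% identical, with a longest identical run of 80 bases, while *Akr1b3* was 70.9% identical to *Akr1b8* and 71.6% to *Akr1b10*, with longest runs of 24 and 23 bases. The first 90 bases of coding exon 2 are shown to give the spacing of these differences, from the GENCODE M21 transcripts, with each base that differs from *Akr1b3* in capitals. They are at chr6:34312718-34312807 (minus strand), chr6:34356256-34356345 (plus) and chr6:34387672-34387761 (plus).
Akr1b3: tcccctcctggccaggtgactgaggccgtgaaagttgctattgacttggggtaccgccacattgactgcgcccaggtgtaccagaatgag
Akr1b8: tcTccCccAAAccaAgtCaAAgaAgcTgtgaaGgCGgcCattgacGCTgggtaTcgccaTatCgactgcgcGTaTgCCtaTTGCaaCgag
Akr1b10: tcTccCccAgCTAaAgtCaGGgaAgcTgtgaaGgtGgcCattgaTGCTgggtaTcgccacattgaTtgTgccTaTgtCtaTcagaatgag
Within this window *Akr1b8* differed from *Akr1b3* at 31 bases and *Akr1b10* at 26. The counts of *Akr1b8*, *Akr1b10*, *Khk* and *Dcxr* were whole numbers in every library, with a posterior SD of 0 in RSEM's estimate. For *Akr1b3* the estimate was not whole in 31 libraries, with an SD of at most 2.78 counts. For *Sord* it was not whole in 6 libraries, and the SD was above 0 in 31 and at most 1.7 counts.

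*Sord* was highest in *KT*, lowest in non-restored and intermediate in restored tumor cells. In *KT* libraries it was at 48.4, 51.3, 52.5 and 62.7 CPM. In non-restored libraries the lowest value was 4.76, the median 7.53 and the highest 14.2 CPM, and in restored libraries these were 20.1, 30.3 and 42.9 CPM. The groups did not overlap. Means were 53.7 CPM ± 6.22 (SD, n = 4), 8.07 CPM ± 2.80 (SD, n = 10) and 30.3 CPM ± 8.71 (SD, n = 7), so that non-restored cells held 15.03% of the *KT* level and restored cells 56.4%. On the log2 scale of the fit, *Sord* differed by -2.74 between non-restored and *KT* and by 1.92 between restored and non-restored libraries. With *KT* set to 100% and non-restored to 0%, the restored mean stood at 48.7%. The plot of *Sord* by library shows this order.

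**Figure D1:**
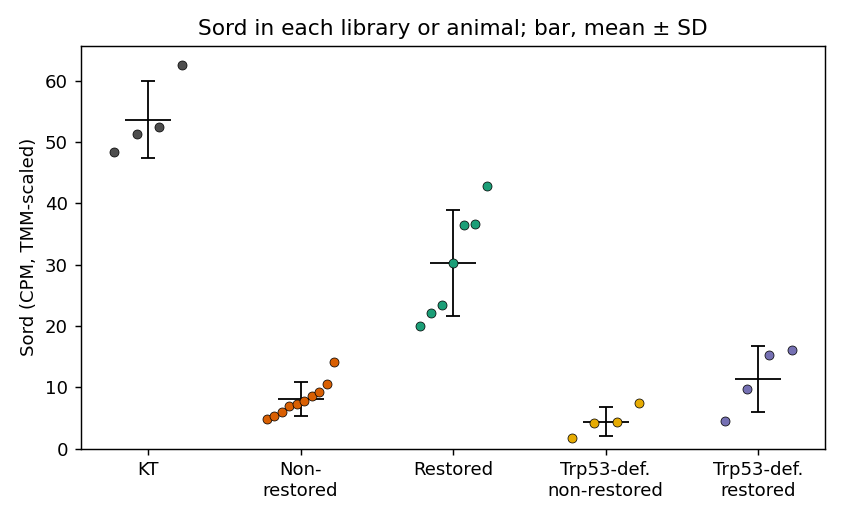
*Sord* in CPM (y axis, from 0) in each library, or animal for *Trp53*-deficient non-restored tumors, by group, with the mean ± SD as a bar. The 4 *KT* points (48.4 to 62.7), 7 restored points (20.1 to 42.9) and 10 non-restored points (4.76 to 14.2) do not overlap, whereas the *Trp53*-deficient groups do.

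In the *Trp53*-deficient tumors *Sord* was also higher on average with restoration. It was at 1.79, 4.11, 4.26 and 7.48 CPM in the 4 non-restored animals and at 4.46, 9.70, 15.3 and 16.1 CPM in the 4 restored libraries. Of the restored libraries 3 lay above every non-restored animal and the lowest lay within the non-restored range. Means were 4.41 CPM ± 2.34 (SD, n = 4) and 11.4 CPM ± 5.41 (SD, n = 4), a log2 difference of 1.37 (SE 0.513) in edgeR's quasi-likelihood fit given as a description. In this comparison 0 of 12518 genes passed by edgeR, a share of 0%, with 748 at an unadjusted p under 0.05, and DESeq2 called 23. *Stk11* itself had an adjusted p of 0.0587. Of the genes described with *Sord*, 0 were called by either tool.

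Counts behind the low *Trp53*-deficient values were few. The 3 libraries of the animal at 1.79 CPM held 3.25, 5 and 6 expected counts of *Sord*, and without this animal the log2 difference was 1.08. Between *Trp53* backgrounds *Sord* stood lower with *Trp53* deleted, at 54.7% of the wild-type mean in non-restored and 37.5% in restored tumors. The effect of restoration differed between backgrounds by -0.57 on the log2 scale. Leaving out each library or animal in turn moved this value between -0.85 and -0.14. It was -0.14 without the non-restored animal at 7.48 CPM and -0.30 without the restored library at 4.46 CPM. These values share the libraries on which *Sord* was chosen and are given without a test. Summed ATII markers were also lower with *Trp53* deleted, at 8087 to 28176 CPM in the non-restored and 28845 to 44614 CPM in the restored group, and their part in these values was not tested.

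Restored cells had received tamoxifen and 6 of the 10 non-restored libraries had not. Within the non-restored group the tamoxifen arm lacked FLPo-ERT2 and the vehicle arm carried it, so drug and genotype cannot be told apart. Among non-restored libraries, *Sord* ranged from 4.76 to 14.2 CPM in the 4 of the tamoxifen arm and from 6.01 to 10.6 CPM in the 6 of the vehicle arm. The arms overlapped, and the log2 difference was -0.03 (SE 0.335), with a 95% confidence interval from -0.77 to 0.71. The exact permutation test gave a two-sided p of 0.838. *Sord* was chosen on values that include these libraries, and such a choice favors a small spread within groups. The p therefore cannot show that the arms are alike. By edgeR 0 of the 6 genes and 0% of 11561 genes passed between arms, with 378 at an unadjusted p under 0.05 and 11 called by DESeq2.

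*Akr1b3*, the aldose reductase that feeds *Sord* with sorbitol, followed the same order over a smaller range. In *KT* libraries it was at 70.5, 75.0, 77.9 and 98.3 CPM. In non-restored libraries the lowest, median and highest values were 33.5, 50.001 and 63.2 CPM, all below *KT*. In restored libraries they were 52.8, 65.4 and 78.9 CPM, overlapping both. Non-restored cells held 61.6% of the *KT* mean, a log2 difference of -0.69 (SE 0.145; edgeR adjusted p = 0.00594). Of the 5 genes other than *Sord* this was the 1 that passed between non-restored and *KT*, where 5.86% of 12636 genes did. With female libraries alone the difference was -0.79 and the adjusted p 0.0752.

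Between restored and non-restored libraries *Akr1b3* differed by 0.38 on the log2 scale (SE 0.122; adjusted p = 0.125), which missed the threshold. By edgeR 0 of the 5 genes passed here, against 1.87% of 12636 genes, and 0 passed by DESeq2. *Akr1b3* (p = 0.00536) and *Khk* (p = 0.0154) had an unadjusted p under 0.05 among them. Between restored and *KT* libraries *Akr1b3* differed by -0.31 (SE 0.156; adjusted p = 0.496), and 0 of the 5 genes passed by either tool, against 0.459% of all genes. In the *Trp53*-deficient tumors *Akr1b3* was 27.4, 37.8, 47.9 and 48.5 CPM without and 45.4, 50.7, 52.9 and 64.1 CPM with restoration, a log2 difference of 0.42 (SE 0.213; adjusted p = 0.803).

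**Figure D2:**
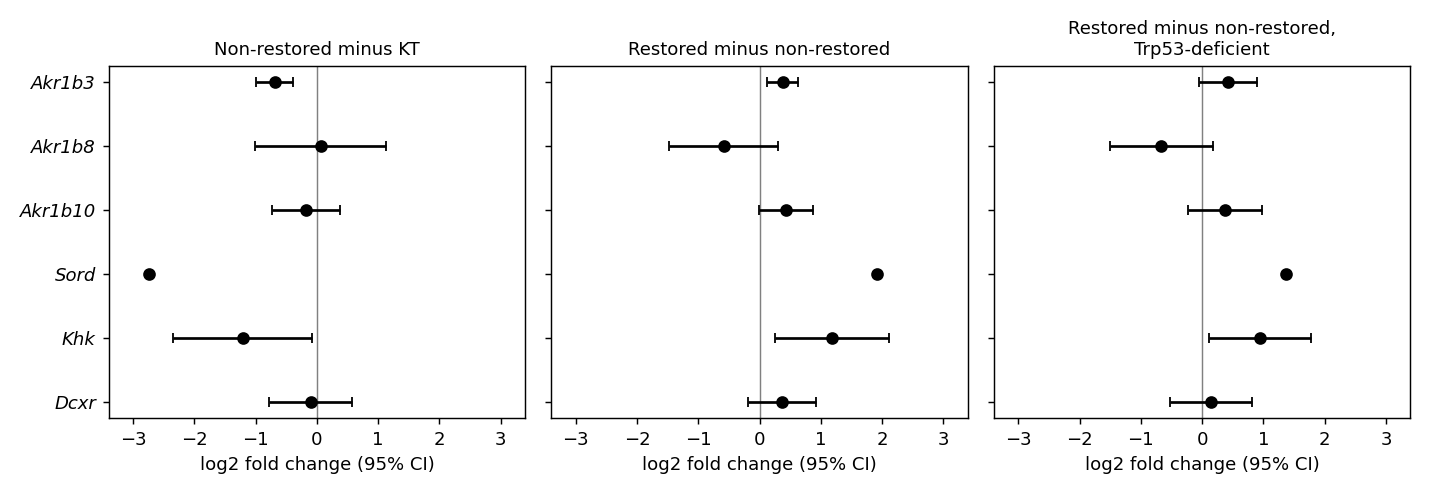
Log2 fold changes (x axis) of the 6 genes in 3 comparisons, with 95% confidence intervals from edgeR's fit and 0 as a grey line. *Sord* is drawn without an interval, since it was chosen by these differences. *Akr1b3* (-0.69) is the gene among the other 5 that passed the threshold, in non-restored minus *KT*.

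*Khk*, which takes up the fructose that sorbitol dehydrogenase makes, was the gene nearest to *Sord* in the size of its differences but was counted at a low level, with at most 60 counts in a library. It was at 5.00, 6.71, 6.97 and 10.3 CPM in *KT* libraries. It ran from 0 over a median of 3.30 to 5.70 CPM in non-restored libraries and from 2.68 over 7.44 to 13.6 CPM in restored ones. The restored range overlapped both others, and 4 of 7 restored libraries lay above every non-restored one. The log2 difference was -1.21 between non-restored and *KT* (SE 0.544; adjusted p = 0.203) and 1.18 between restored and non-restored libraries (SE 0.449; adjusted p = 0.200). The non-restored library with 0 counts could hold up to 1.64 CPM, the level of 3 counts there, a limit for counting error only. In *Trp53*-deficient tumors *Khk* was 2.95, 3.02, 5.34 and 6.40 CPM without and 6.09, 7.25, 8.48 and 11.2 CPM with restoration. Its log2 difference there was 0.94 (SE 0.373; p = 0.0306, adjusted p = 0.803).

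*Akr1b8* and *Akr1b10*, which reduce aldehydes and retinal more than glucose, did not pass in any comparison by edgeR. *Akr1b8* had the largest SD in CPM of the 6 genes in each group. It was between 45.8 and 92.3 CPM in *KT*, between 32.3 and 167 CPM in non-restored and between 17.0 and 112 CPM in restored libraries. Of the 7 restored libraries 5 lay below every non-restored one while the remaining pair, at 96.5 and 112 CPM, lay well above the median of 48.8 CPM. The restored minus non-restored difference was -0.59 (SE 0.427; adjusted p = 0.562) in the *Trp53* wild-type and -0.67 (SE 0.373; adjusted p = 0.803) in the *Trp53*-deficient tumors, where it was 61.3, 90.2, 120 and 124 CPM without and 35.0, 38.6, 67.8 and 105 CPM with restoration. Single libraries moved the first of these differences, which was -0.97 without restored library 4 and -0.34 without non-restored library 4. Non-restored and *KT* libraries differed by 0.065 (SE 0.512; adjusted p = 0.964), a value near 0 whose direction changed with the setting. *Akr1b10* was near 16.7 CPM in all *KT* libraries (15.8 to 17.2 CPM) and spread from 7.07 to 21.2 CPM in non-restored and from 12.4 to 28.3 CPM in restored libraries. Its restored minus non-restored difference was 0.43 (SE 0.214; adjusted p = 0.349) with *Trp53* and 0.38 (SE 0.268; adjusted p = 0.807) without it, and non-restored and *KT* libraries differed by -0.17 (SE 0.267; adjusted p = 0.768). The directions of *Akr1b8* and *Akr1b10* on restoration were thus opposite, and a sum of both counts followed *Akr1b8*, at -0.35 and -0.55.

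*Dcxr* was at 50.3 to 84.8 CPM in *KT*, 13.5 to 92.4 CPM in non-restored and 50.4 to 111 CPM in restored libraries. Its ranges overlapped and its log2 differences were -0.10 (SE 0.325; adjusted p = 0.896) between non-restored and *KT* and 0.37 (SE 0.266; adjusted p = 0.555) between restored and non-restored libraries. With *Trp53* deleted it was lower, at 17.8, 20.5, 28.8 and 46.2 CPM in non-restored animals and at 26.9, 28.3, 32.7 and 36.3 CPM in restored libraries, the latter all below the restored *Trp53* wild-type range. The animal at 20.5 CPM summed 3 libraries that lay far apart, at 7.88, 6.58 and 47.1 CPM of *Dcxr*. In the same libraries *Akr1b10* was at 3.94, 5.48 and 17.4 CPM. In *Trp53*-deficient tumors restoration made a difference of 0.15 in *Dcxr* (SE 0.298; adjusted p = 0.933). The difference from *Trp53* wild-type was -1.06 (SE 0.346; adjusted p = 0.128) in non-restored and -1.32 (SE 0.365; adjusted p = 0.109) in restored tumors. For *Akr1b10* these were -0.89 (SE 0.276; adjusted p = 0.112) and -0.98 (SE 0.288; adjusted p = 0.132). *Akr1b3* differed by -0.28 in both states (adjusted p = 0.357 and 0.424). The differences of *Akr1b8* (0.50 and 0.39, adjusted p = 0.603 and 0.743) and *Khk* (0.49 and 0.21, adjusted p = 0.640 and 0.877) had the opposite sign.

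By edgeR 0 of the 5 genes thus passed between *Trp53* backgrounds, against 0.598% of 13705 genes in non-restored and 0.372% in restored tumors. DESeq2 called *Dcxr* and *Akr1b10* in both, with adjusted p of 0.0436 for each in non-restored and of 0.0230 and 0.0440 in restored tumors, where it called 3.06% and 1.58% of all genes. Without non-restored library 8, edgeR called both in non-restored tumors (adjusted p = 0.0101 and 0.0189) and *Dcxr* in restored tumors (adjusted p = 0.0175), and the share of all genes called was then 10.8% and 1.14%. In the test of whether restoration acted differently in the *Trp53* backgrounds, 0 of the 5 genes and 0% of 13705 genes passed by edgeR, with 424 at an unadjusted p under 0.05, and DESeq2 also called 0.

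**Figure D3:**
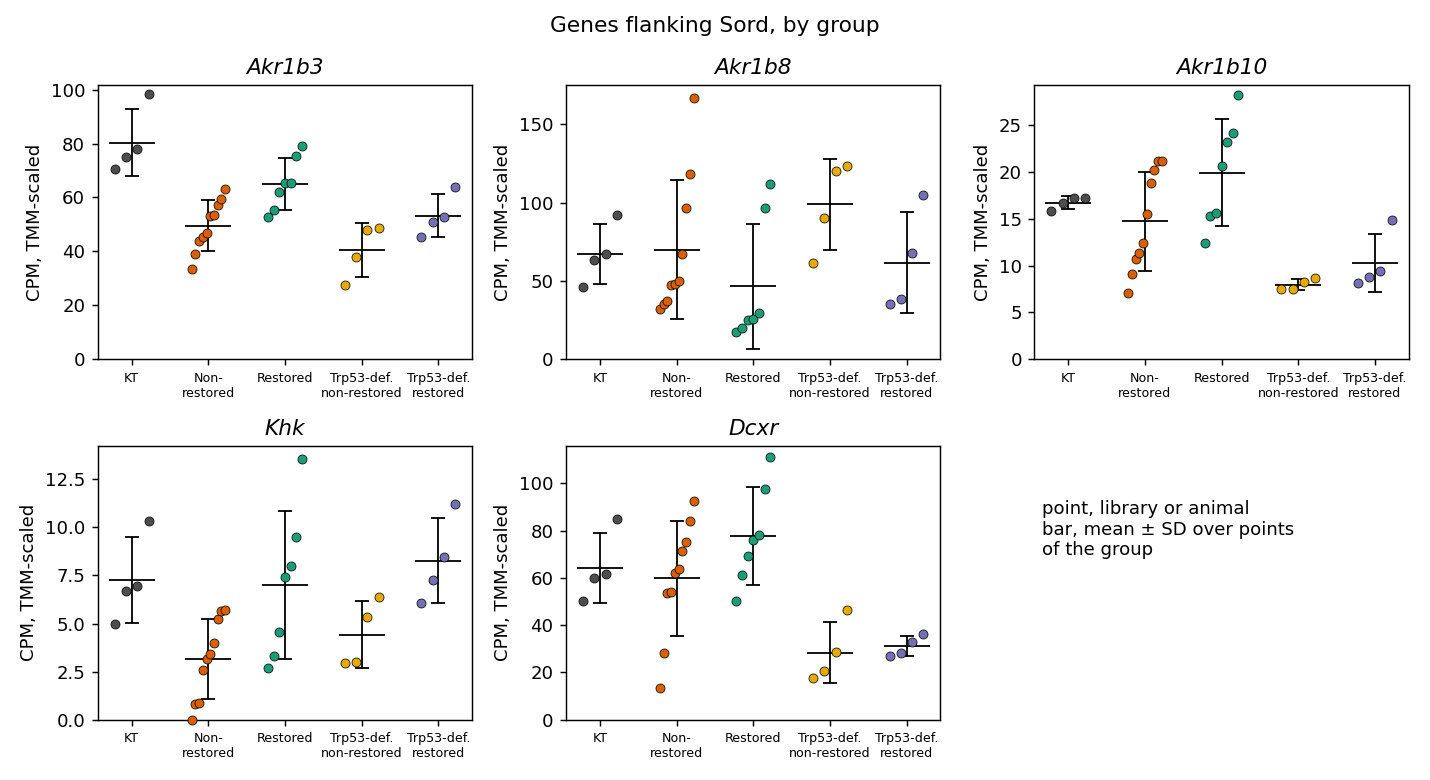
CPM (y axes, from 0, scaled per gene) of *Akr1b3*, *Akr1b8*, *Akr1b10*, *Khk* and *Dcxr* in each library or animal by group, with the mean ± SD as bars. *Akr1b3* in the 10 non-restored libraries (33.5 to 63.2) lies below all *KT* libraries (70.5 to 98.3), while *Akr1b8* spreads from 17.0 to 112 within the 7 restored libraries.

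In each group the library or animal with the lowest sum of ATII markers had the highest or next highest *Akr1b8*, and in some groups the lowest *Dcxr*. This did not hold for all low sums. Non-restored libraries 1 and 3, with sums of 37001 and 40939 CPM against a group median of 42167 CPM, had *Akr1b8* at 37.2 and 35.4 CPM. Non-restored library 8 had the lowest summed ATII markers of its group, 5662 CPM, the lowest *Dcxr*, *Akr1b3* and *Akr1b10*, and *Akr1b8* at 118 CPM. Library 4 was next with 25342 CPM, and had *Dcxr* at 28.1 CPM and the highest *Akr1b8*, 167 CPM. The restored libraries with the highest *Akr1b8*, at 112 and 96.5 CPM, had the lowest sums of their group, 34911 and 41457 CPM, with *Sord* at 20.1 and 30.3 CPM. Their *Dcxr*, 61.2 and 78.2 CPM, lay on either side of the group median of 76.1 CPM, and the lowest restored *Dcxr*, 50.4 CPM, was in a library with a sum of 67579 CPM. Of the *KT* libraries the one with the lowest sum, 37141 CPM, had the highest *Akr1b8*, 92.3 CPM, and the lowest *Dcxr*, 50.3 CPM, with *Sord* at 62.7 CPM. *Sord* in non-restored library 8 was 5.25 CPM, within the range of the others. The restored libraries with the most immune marker RNA, 339 and 191 CPM, had *Sord* at 22.1 and 23.5 CPM. The part of ATII or immune markers in these values was not tested.

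**Figure D4:**
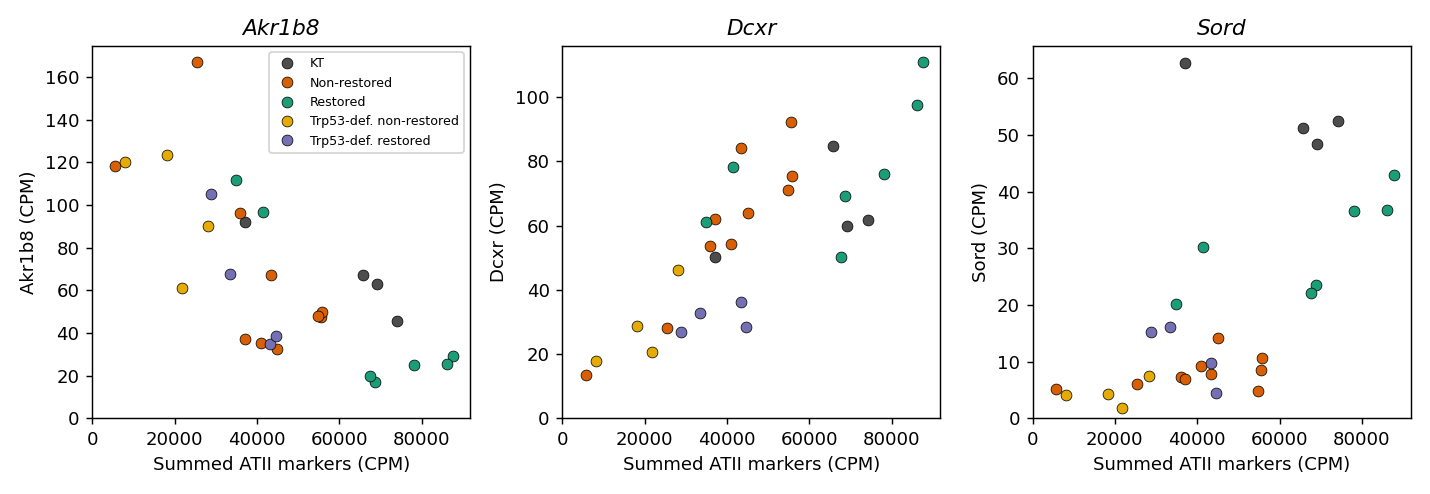
*Akr1b8*, *Dcxr* and *Sord* in CPM (y axes) against the sum of 8 ATII markers in CPM (x axis) for each library or animal, colored by group. In each group the library or animal with the lowest sum has the highest or next highest *Akr1b8*. Of the 4 *KT* libraries 1 has a sum within the non-restored range (5662 to 55708).

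Across the 10 non-restored libraries the 6 genes showed no correlation that passed after adjustment over the 15 pairs. The smallest adjusted permutation p was 0.216 for Pearson's r and 0.333 for Spearman's rho. For *Akr1b8* and *Dcxr*, r was -0.68 (permutation p = 0.0279, adjusted 0.216) and rho -0.42 (permutation p = 0.234, adjusted 0.476), and without the 2 libraries farthest from the *Akr1b8* median r was 0.04, so the relation rested on them. *Sord* and *Akr1b3* had r = 0.13 (permutation p = 0.726, adjusted 0.726) and rho = 0.04 (permutation p = 0.919, adjusted 0.919), and r was 0.71 without the 2 libraries farthest from the *Sord* median.

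Levels per transcript length placed *Sord* in the middle of the set in *KT* cells and at its bottom in cells without *Lkb1*. In *KT* libraries the mean TPM ran from *Akr1b3* (127 ± 23.2, SD, n = 4) and *Dcxr* (116 ± 28.4) over *Akr1b8* (70.1 ± 20.1) and *Sord* (30.3 ± 3.47) to *Akr1b10* (19.2 ± 1.34) and *Khk* (16.8 ± 2.43). *Sord* lay below *Akr1b8* and above *Akr1b10* in all 4 libraries with no overlap, whereas the first 3 genes and the last pair overlapped. In non-restored libraries *Sord* came last at 5.13 ± 1.76 TPM (SD, n = 10), overlapping *Khk* at 9.31 ± 6.84 TPM and below it in 5 of 10 libraries. In restored libraries *Sord* (17.9 ± 4.31 TPM, SD, n = 7) again overlapped both *Akr1b10* (23.9 ± 8.97 TPM) and *Khk* (16.7 ± 8.37 TPM). In both *Trp53*-deficient groups *Sord* came last, below *Akr1b10* in all 4 units without overlap, with means of 2.77 TPM ± 1.57 and 7.00 TPM ± 3.38 (SD, n = 4). RSEM's effective length of *Akr1b3* ranged from 635 to 1146 bases and that of *Khk* from 355 to 902 between libraries, as the isoforms it weighed changed, so TPM and CPM of these genes need not move together.

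**Figure D5:**
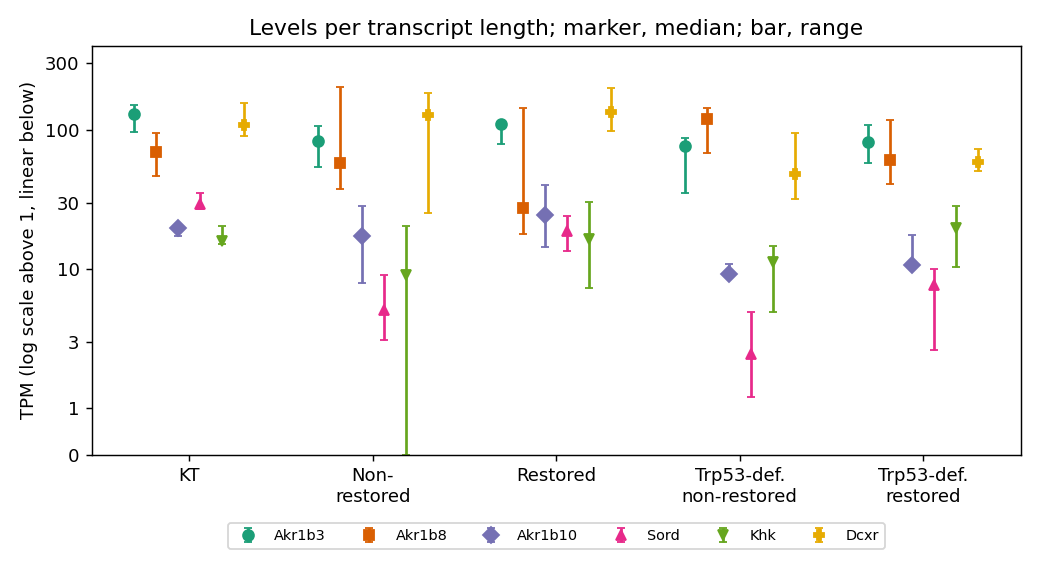
TPM (y axis, logarithmic above 1 and linear below) of the 6 genes by group, with the median as a marker and the range over libraries or animals as a bar. *Sord* (pink triangles) lies between *Akr1b8* and *Akr1b10* in *KT* and at the bottom in both *Trp53*-deficient groups.

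The RNA of the first enzyme relative to that of the second differed between groups. The ratio of *Akr1b3* to *Sord* in TPM was between 3.21 and 5.22 in *KT* libraries, between 7.31 and 31.6 in non-restored and between 3.27 and 8.60 in restored ones. Means were 4.23 ± 0.892 (SD, n = 4), 17.6 ± 6.27 (SD, n = 10) and 6.21 ± 2.07 (SD, n = 7). In *Trp53*-deficient tumors the mean ratio was 30.0 ± 18.0 without and 14.0 ± 6.32 with restoration (SD, n = 4 each), and the ranges, 15.3 to 54.3 and 7.81 to 22.4, overlapped. The ratio holds the *Sord* values on which the gene was chosen and was not tested. Within the aldose reductase family, *Akr1b3* supplied 58.6% ± 8.59 of the summed TPM in *KT*, 47.3% ± 11.9 in non-restored and 60.8% ± 15.5 in restored libraries. The near paralog *Akr1b7* was listed at 0 in 21 of 32 libraries and reached 4.96 CPM in 1 restored library.

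The genes whose log2 CPM was most like that of *Sord* over the 21 *Trp53* wild-type libraries were taken from 12635 others by Pearson's r, as a description over groups that differ. They were *Stk11* itself (r = 0.93), *Prdx6*, which encodes the antioxidant enzyme peroxiredoxin 6 (r = 0.92), *Cat*, which encodes catalase (r = 0.90), the zinc finger gene *Zfp385b* (r = 0.89) and *Selenop*, which encodes a secreted selenium carrier (r = 0.89). *Cat* was 916 CPM ± 112 in *KT* (SD, n = 4), 369 CPM ± 106 in non-restored (SD, n = 10) and 718 CPM ± 99.7 in restored libraries (SD, n = 7). *Prdx6* was 398, 182 and 291 CPM, *Selenop* 997, 336 and 911 CPM, and *Zfp385b* 73.4, 12.2 and 43.0 CPM in the same order. Among the pathway genes *Akr1b3* ranked 182 (r = 0.72), *Khk* 986 (r = 0.51) and *Akr1b8* 9380 (r = -0.25).

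Around the pathway, 5 lists of related genes were read in the same fits, in which 5.86% of all genes passed between non-restored and *KT*, 1.87% on restoration and 0.459% between restored and *KT* libraries. Of 16 genes of fructose and hexose entry 10 were tested. *Aldoa*, the aldolase of glycolysis, rose in non-restored against *KT* cells (log2 0.90, SE 0.251, adjusted p = 0.0364) and fell on restoration (log2 -0.86, SE 0.203, adjusted p = 0.0264), from 453 CPM ± 166 (SD, n = 10) to 251 CPM ± 53.4 (SD, n = 7). No other gene of this list passed, and 8 of the 10 were lower in restored cells, with a median of -0.22 against -0.01 for all genes. In the glucuronate-xylulose list 7 of 10 genes were tested, and *Cryl1*, an L-gulonate dehydrogenase gene, was lower in non-restored than in *KT* cells (log2 -0.98, SE 0.246, adjusted p = 0.0194), while on restoration 0 passed.

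Of 14 other aldo-keto reductase genes 6 were tested. *Akr1c19* fell to 9.50 CPM ± 4.02 in non-restored (SD, n = 10) from 37.9 CPM ± 16.4 in *KT* cells (SD, n = 4; log2 -2.01, SE 0.387, adjusted p = 0.00316), and rose to 26.4 CPM ± 16.5 with restoration (SD, n = 7; log2 1.49, SE 0.336, adjusted p = 0.0204). Of 6 osmolyte genes 5 were tested, and 2 were higher in non-restored than in *KT* cells. *Slc5a3*, a myo-inositol transporter, was 28.4 CPM ± 8.40 in *KT* (SD, n = 4) and 112 CPM ± 41.8 in non-restored cells (SD, n = 10; log2 1.99, SE 0.393, adjusted p = 0.00397). *Hspa4l*, a chaperone gene, differed by 0.54 (SE 0.160; adjusted p = 0.0457). On restoration 0 of these 5 passed.

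Of 16 aldehyde-clearing genes 14 were tested. *Aldh2*, the mitochondrial aldehyde dehydrogenase, fell in non-restored against *KT* cells (log2 -0.72, SE 0.197, adjusted p = 0.0324) and rose on restoration (log2 0.66, SE 0.167, adjusted p = 0.0395). *Glo1*, the glyoxalase that clears methylglyoxal, was lower in restored than in *KT* cells (log2 -0.74, SE 0.162, adjusted p = 0.0401). In the *Trp53*-deficient tumors no gene of these lists passed by edgeR, as was the case for all 12518 genes tested.

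Of the genes beside the pathway genes on the chromosomes, only those near *Khk* and *Dcxr* could be tested. Within 50 kb lay 30 other annotated genes, of which 12 were tested in the *Trp53* wild-type fit, 6 beside *Khk* and 6 beside *Dcxr*. Of these 0 passed between restored and non-restored or between non-restored and *KT* libraries (smallest edgeR adjusted p 0.219 and 0.226). Over all genes 1.87% and 5.86% passed there, and at such shares 0 of 12 is no result about the neighbors. None of the 8 neighbors of *Sord*, and no other gene beside the aldose reductases, was expressed highly enough for that test. The nearest, *Duox2*, 13907 bases away, was 0 CPM in *KT*, 2.15 CPM in non-restored and 10.6 CPM in restored cells on average. The gene with the smallest adjusted p was *Cbr2*, a carbonyl reductase gene 2208 bases from *Dcxr*, at 297 CPM in *KT*, 89.3 CPM in non-restored and 312 CPM in restored cells on average.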

How the data were processed

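Expected counts and TPM per gene were deposited by the authors, who aligned paired-end reads to mm10 with STAR 2.6.1d and ran RSEM 1.2.30. The deposited files also give RSEM's effective length and the posterior SD of each count, which were used as further columns. Strand was not given for the counting in the sources used here. A deposited table of normalized counts and tables of the authors' own DESeq2 fold changes and p-values were not used.

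Expected counts were rounded, filtered with filterByExpr and scaled by TMM. Tests were edgeR's quasi-likelihood F test (edgeR 4.0.16, R 4.3.3), with Benjamini-Hochberg adjustment over all genes tested and a threshold of 0.05. Wild-type libraries (21) formed 1 fit with 3 groups, the 8 units without *Trp53* were fitted by themselves, and 25 units for comparisons between backgrounds. In simulated counts of the *Trp53*-deficient comparison, 66% of genes changed by 4-fold and 14% of those changed by 2-fold were called among 12336 genes. Log2 CPM had a prior count of 2. Confidence intervals have a level of 95%.

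The study counts fewer mice than libraries for the restored and non-restored groups, so p-values, which treat libraries as independent, may partly measure technical spread. Replicate numbers were not taken as pairs, since 6 of 15 same-numbered pairs correlated above 0.1 in their deviations. All genes and lists were chosen with earlier results of these data known, and no test of *Sord* between groups is given. Genes named are the 6 pathway genes, *Stk11*, *Akr1b7*, the called genes of each list (at most 4), the 5 genes most like *Sord* and genes within 50 kb. Alternatives were DESeq2 1.42.0, median-of-ratios scaling, other filters, length offsets, limma (3.58.1) on log2(TPM + 1), sex, arms, other units, summed paralogs and leaving out each library or animal. Coordinates are from GENCODE M21 (GRCm38). Correlations used scipy 1.17.1 with 100000 permutations. An allele shared by all mice is not reported here.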

Additional observations from a re-analysis of the deposited data

How the results depend on the processing

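Leaving out each library or animal moved the log2 difference of *Sord* between 1.81 and 2.03 for restored minus non-restored, between -2.85 and -2.65 for non-restored minus *KT*, between 1.08 and 1.80 in the *Trp53*-deficient tumors and between -0.38 and 0.17 for tamoxifen minus vehicle arm, which changed sign. The other settings gave *Sord* 1.64 to 2.08, -2.81 to -2.40 and 1.05 to 2.04 in the first 3 comparisons. Female animals alone (2.04), the vehicle arm (1.28) and the tamoxifen arm (1.44) were chosen after seeing the data. *Akr1b3* in non-restored minus *KT* lost its call with female libraries only (-0.79, 0 genes called) and when the aldose reductases were summed (-0.29), which tests another quantity, and kept it without each library in turn (-0.75 to -0.59).

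Summing 4 aldose reductases gave -0.024 for restored minus non-restored, -0.21 in *Trp53*-deficient tumors, and 0.14 and -0.081 between backgrounds. Summing *Akr1b8* and *Akr1b10* gave -0.35, 0.019 (non-restored minus *KT*), -0.55, 0.34 and 0.11. A sum gives 1 value for all its genes, so its direction can differ from that of a single gene. The sum of 4 also turned the direction of *Akr1b8*, to -0.29 in non-restored minus *KT* and to -0.081 between backgrounds in restored tumors. For *Akr1b8* in non-restored minus *KT*, sex as a covariate gave -0.041 and single libraries -0.17 to 0.25. *Dcxr* ranged from -0.20 to 0.061 there. In *Trp53*-deficient tumors *Dcxr* ranged from -0.028 to 0.50 and was -0.11 with the vehicle arm only. Between backgrounds DESeq2 called 2 genes in each state, and leaving out single libraries 0 to 2 and 0 to 1. The causes were not tested. Low depth limits *Khk*, which a minimum of 10 counts in every library removed from the *Trp53* wild-type fit, as it did *Sord* from the *Trp53*-deficient one.

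The replicate numbers of the labels do not pair the libraries, since 6 of 15 same-numbered pairs correlated above 0.1 and 2 of 18 libraries correlated best with their own number. With the replicate block *Sord* was 1.86 and -2.70 in the first 2 comparisons, *Akr1b3* in non-restored minus *KT* was -0.64 and *Akr1b8* -0.38, and no call changed.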
